A study of Homo sapiens with 6 samples.

Results

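Liver X receptor (LXR) targets and sterol efflux genes were followed in ARPE-19 cells, a human line derived from retinal pigment epithelium, after a short exposure to SRPIN803. The set was defined by 10 gene symbols, and its members are the array's probe sets whose annotation names exactly 1 of those genes. A probe set is a group of short probes whose signals are summarised to 1 value. This gave 28 probe sets for 9 genes, out of 54613 probe sets tested and 19775 genes with a probe set of their own. NR1H2, the tenth gene, had no probe set meeting the rule and was not analysed here.

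The study compared 3 arrays of cells given 0.1% DMSO, the solvent, with 3 arrays from cultures exposed to 10 µM SRPIN803. Both exposures lasted 4 h, in medium with 10% serum. SRPIN803 is known as an inhibitor of the splicing factor kinase SRPK1 and of protein kinase CK2. All 6 samples are the same unmodified line, so they describe 1 cell line at 1 dose and 1 time. Whether replicates came from separate cultures is not in the labels, so the p-values measure the spread among these arrays alone, and that spread may be technical.

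LXRs are nuclear receptors that are activated by oxysterols, the oxidised forms of cholesterol. They pair with the retinoid X receptor (RXR) and bind a direct repeat of a hexamer with a spacer, called DR4, at genes that move cholesterol out of the cell. The retinal pigment epithelium takes up lipid-rich photoreceptor tips every day, and export of the sterol through ABCA1 and uptake through scavenger receptors are established parts of its lipid handling. In the account below, levels and changes are on the log2 scale of the deposited values, and changes are SRPIN803 minus DMSO.

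The 2 genes with a called probe set were ABCA1, which carries the textbook DR4 element, and LIPG. The 250 bases before the start of each follow, taken from RefSeq on build GRCh38.p14. The ABCA1 window lies at chr9:104928156-104928405 on the minus strand, and the LIPG window at chr18:49561807-49562056 on the plus strand. Both are written 5′ to 3′ in the direction of the gene. In ABCA1 the first run of capitals marks an E-box (CACGTG) and the second a match to DR4, which reads on the opposite strand. LIPG has no capitals because neither motif was found in its window.
ABCA1: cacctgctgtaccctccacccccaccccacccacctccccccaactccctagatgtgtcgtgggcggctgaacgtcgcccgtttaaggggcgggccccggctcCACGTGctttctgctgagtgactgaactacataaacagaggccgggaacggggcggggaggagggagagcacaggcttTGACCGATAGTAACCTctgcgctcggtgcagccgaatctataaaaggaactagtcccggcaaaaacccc
LIPG: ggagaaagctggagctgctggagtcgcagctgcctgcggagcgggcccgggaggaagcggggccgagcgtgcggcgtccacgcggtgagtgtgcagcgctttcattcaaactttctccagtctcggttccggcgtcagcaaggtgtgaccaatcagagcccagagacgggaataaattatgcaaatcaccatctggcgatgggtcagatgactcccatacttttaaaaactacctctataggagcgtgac

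The DR4 search used AGGTCA repeated after a spacer of 4 bases of any kind, on both strands, and allowed up to 2 of its 12 fixed letters to differ. The ABCA1 match, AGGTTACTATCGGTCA, differed at 2 letters, the most allowed, and lay 69 to 54 bases before the start. That ABCA1 carries such an element was known beforehand, so finding it is not a test. Such a match was found in 2.03% of all 35116 promoter windows of the same length. The E-box of ABCA1 lay 147 to 142 bases before the start, and CACGTG was found in 6.34% of windows. ABCA1 also held TATAAA 31 to 26 bases before the start (10.7% of windows) and GGGCGG at 3 places (42.6% of windows). Of the 9 genes, 6 had an entry, with 11 windows in all. ABCG1, SCARB1 and LPL had no entry and were not searched. Among the 11 windows, DR4, CACGTG and TATAAA were found in ABCA1, and GGGCGG also in MYLIP, NR1H3, LPCAT3 and APOE. None of the 11 windows held TGAGTCA, TGACGTCA or TCACCCCAC, which were found in 4.20%, 1.65% and 0.362% of all windows. A match is a run of letters and was not tested as a binding site.

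In cells given SRPIN803 the data show a higher level of ABCA1, the transporter that hands cholesterol to lipid-poor apolipoprotein A-I, and a lower level of LIPG, the secreted endothelial lipase that cleaves phospholipids of high-density lipoprotein. ABCA1 rose 1.49-fold (95% interval 1.32 to 1.68) on its brightest probe set, and LIPG fell 2.17-fold (1.92 to 2.45). The other 7 genes had no called probe set. A probe set was called at an adjusted p under 0.05, from limma's moderated test with Benjamini-Hochberg adjustment over all 54613 probe sets. By that rule 3 of 28 member probe sets were called, 2 higher and 1 lower, while 2.22% of all probe sets were called, 1.19% higher and 1.03% lower. All 3 were among the 14 members above the median level, where 3.83% of all probe sets were called. The members were chosen with the rise of ABCA1 and the fall of LIPG known, so setting these shares side by side is not a test. Groups did not overlap in 5 of the 28 (17.9%), with SRPIN803 above in 3 and below in 2. Over all probe sets that share was 21.5%, with 11.3% above and 10.1% below. The median change was 0.0071 over the 28 and 0.0054 over all probe sets. In bulk RNA a change per cell and a change in the share of cells making the transcript cannot be told apart.

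**Figure D1:**
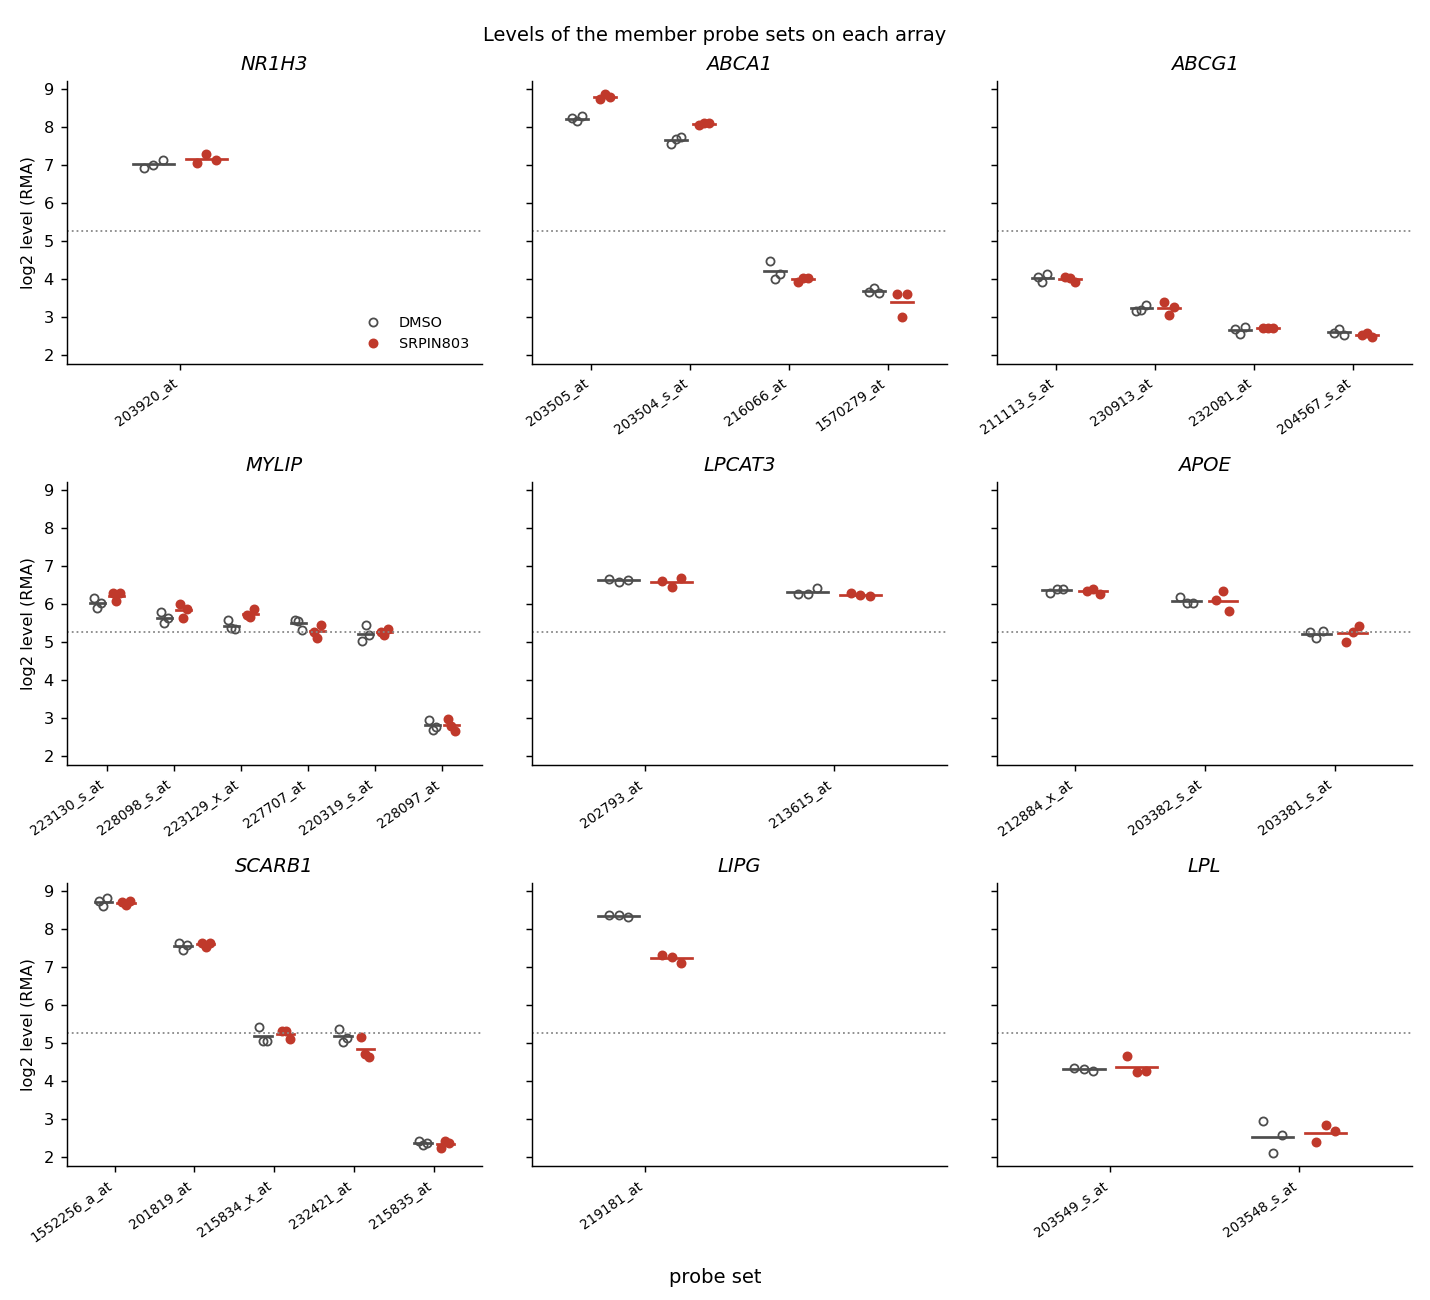
Level (log2, vertical axis) of each of the 28 member probe sets on each array, 1 panel per gene, with open grey circles for the 3 DMSO arrays, filled red circles for the 3 SRPIN803 arrays and short lines for the group means. The dotted line is the median level of all probe sets, 5.26, and the groups lie clearly apart for the upper 2 ABCA1 probe sets and for LIPG.

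The receptor itself was represented by NR1H3, the gene of LXR alpha, which many cells induce in a feedback loop. Its probe set 203920_at read 6.92, 7.0 and 7.14 on the DMSO arrays and 7.06, 7.31 and 7.14 on the SRPIN803 arrays. The groups overlapped, with SRPIN803 replicate 2 the highest of the 6. The change was 0.15 ± 0.09 (limma's standard error, used throughout) with a 95% interval of -0.07 to 0.36 and limma's adjusted p = 0.520.

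ABCA1 had 4 probe sets, and they did not move alike. The brightest, 203505_at, read 8.24, 8.15 and 8.30 in DMSO and 8.75, 8.88 and 8.79 in SRPIN803. All 3 treated arrays lay above all 3 controls, with a gap of 0.45 between the groups that exceeded the SD of 0.07 within each. The change was 0.58 ± 0.07, from a mean of 8.23 ± 0.07 to 8.81 ± 0.07 (SD, n = 3), with limma's adjusted p = 0.0119. The second, 203504_s_at, read 7.56, 7.68 and 7.73 in DMSO and 8.07, 8.11 and 8.10 in SRPIN803. These groups were also apart, by 0.34, and the change was 0.44 ± 0.07 (1.35-fold, 1.21 to 1.52) with limma's adjusted p = 0.0273.

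The remaining 2 ABCA1 probe sets lay below the median level of all probe sets, where background makes up more of the signal, and were not called. Probe set 216066_at read 4.48, 4.00 and 4.13 in DMSO and 3.92, 4.02 and 4.02 in SRPIN803, a change of -0.22 ± 0.12. DMSO replicate 1 stood above the other 5 arrays there, and without it the change was -0.08. Probe set 1570279_at read 3.65, 3.77 and 3.63 in DMSO and 3.61, 3.0 and 3.60 in SRPIN803, a change of -0.28 ± 0.16. All 3 treated arrays lay below all 3 controls here too, in the direction opposite to the bright probe sets, by a gap of 0.03. SRPIN803 replicate 2 was the low array, and without it the change was -0.08. The level summed over 8 macrophage markers, a cell type known for high ABCA1, was 33.55 to 34.07 in DMSO and 34.11 to 34.66 in SRPIN803. Every SRPIN803 sum thus lay above every DMSO sum, the same direction as ABCA1. Taken singly, 0 of the 8 markers had groups that did not overlap, against 25.6% of all genes. The means of LYZ, CD163 and CSF1R were lower in SRPIN803 (-0.11, -0.04 and -0.01), and those of the other markers were higher. For CD14, SRPIN803 replicate 2 was the high array (4.14, against 3.63 and 3.65). Of the 8 markers, limma called 0 and 0 had an unadjusted p under 0.05 (2.92% and 17.1% over all genes). The 2 above the median level were AIF1 (5.85) and CSF1R (5.48). The defining genes PTPRC (2.82) and CD14 (3.72) lay below it, and their part in the ABCA1 change was not tested. Averaging all 4 probe sets of ABCA1 gave 0.13 ± 0.06, which was not called in a limma fit over genes (adjusted p = 0.301).

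The ABCA1 calls did not all hold with 1 array left out. With 1 array left out, the change of 203505_at stayed between 0.54 and 0.61, while limma's adjusted p ran from 0.0350 to 0.0637 and passed 0.05 without any 1 DMSO replicate (0.0585, 0.0637 and 0.0518 without replicate 1, 2 and 3). That of 203504_s_at stayed between 0.39 and 0.47, and the call was lost without any 1 of the 6 arrays, with adjusted p from 0.0666 to 0.104. In a fit with 1 probe set per gene, which adjusts over 19775 genes, 203505_at had limma's adjusted p = 0.00497. In that fit, chosen in this form after seeing the data, it ran from 0.0171 to 0.0262 with 1 array left out.

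**Figure D2:**
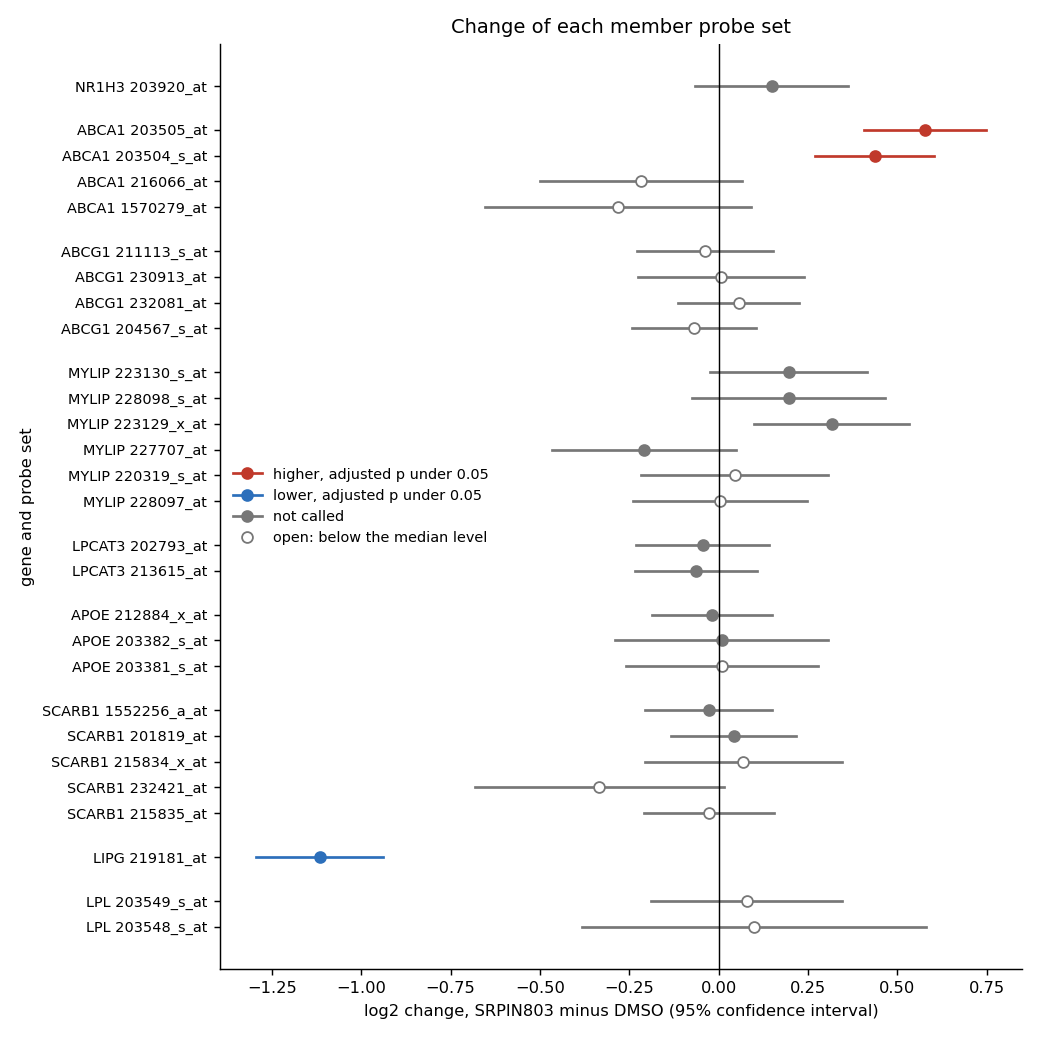
Change of each member probe set (log2, SRPIN803 minus DMSO, horizontal axis) with its 95% confidence interval, grouped by gene and ordered by level within the gene. Red marks probe sets called higher, blue called lower, grey not called, and open circles those below the median level. ABCA1 shows 2 intervals above 0 and 2 dim probe sets below it, and LIPG stands alone at -1.12.

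ABCG1, the transporter that passes cholesterol on to mature high-density lipoprotein, and another textbook LXR target, had 4 probe sets, all below the median level. The brightest, 211113_s_at, read 4.06, 3.91 and 4.13 in DMSO and 4.04, 4.03 and 3.91 in SRPIN803. The groups overlapped on all 4 probe sets, and the changes ran from -0.07 to 0.06, with limma's adjusted p of 0.745 or more. The 95% intervals spanned -0.24 to 0.24, so on these probe sets a change as large as that of ABCA1 203505_at lay outside them, although values of dim probe sets are compressed.

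MYLIP, also called IDOL, encodes the ubiquitin ligase through which LXR marks the LDL receptor for degradation. It had 6 probe sets, 5 with a higher and 1 with a lower mean in SRPIN803, and none was called. The brightest, 223130_s_at, read 6.16, 5.90 and 6.03 in DMSO and 6.30, 6.09 and 6.29 in SRPIN803, so the groups overlapped (0.20 ± 0.09, limma's adjusted p = 0.382). Probe set 223129_x_at, whose suffix marks probes that can also match other sequences, read 5.59, 5.37 and 5.35 in DMSO and 5.72, 5.66 and 5.87 in SRPIN803. There the groups were apart by 0.07, less than the SD within either group, and the change was 0.32 ± 0.09 with limma's adjusted p = 0.147. This was the 1 member probe set outside the calls with an unadjusted p under 0.05 (0.0099), which 4 of the 28 and 15.6% of all probe sets reached.

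Other MYLIP probe sets did not share that size or sign. Probe set 228098_s_at was at 0.20 ± 0.12, with 5.80, 5.49 and 5.64 in DMSO against 5.99, 5.64 and 5.88 in SRPIN803. Probe set 227707_at went the other way at -0.21 ± 0.11, with 5.59, 5.56 and 5.32 in DMSO against 5.28, 5.12 and 5.45 in SRPIN803. In both the groups overlapped. The dimmer 220319_s_at and 228097_at changed by 0.04 ± 0.11 and 0.0027 ± 0.105. The mean of all 6 was at 0.09 ± 0.07 in the fit over genes (limma's adjusted p = 0.582).

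LPCAT3 encodes the acyltransferase that places polyunsaturated chains in phospholipids and is induced by LXR in many tissues. Its probe set 202793_at read 6.66, 6.58 and 6.64 in DMSO and 6.60, 6.45 and 6.69 in SRPIN803. The other, 213615_at, read 6.26, 6.26 and 6.41 in DMSO and 6.29, 6.23 and 6.22 in SRPIN803. Groups overlapped in both, with changes of -0.05 ± 0.08 and -0.06 ± 0.07 and intervals between -0.23 and 0.14.

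APOE, the apolipoprotein that accepts cholesterol and carries it to receptors, had 3 probe sets with changes between -0.02 and 0.01. The brightest, 212884_x_at, read 6.30, 6.39 and 6.40 in DMSO and 6.36, 6.41 and 6.26 in SRPIN803. Its interval was -0.19 to 0.15 and limma's adjusted p = 0.941. Probe set 203382_s_at spread more in SRPIN803 (6.10, 6.34 and 5.83) than in DMSO (6.19, 6.02 and 6.03), with the SRPIN803 values on both sides of the controls. Probe set 203381_s_at lay just under the median level and read 5.28, 5.11 and 5.29 against 5.00, 5.27 and 5.43.

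SCARB1 encodes scavenger receptor class B type I, which takes up cholesterol esters from high-density lipoprotein and also lets free cholesterol pass out. Its brightest probe set, 1552256_a_at, read 8.75, 8.63 and 8.82 in DMSO and 8.73, 8.64 and 8.74 in SRPIN803, a change of -0.03 ± 0.08 with an interval of -0.21 to 0.15. Probe set 201819_at read 7.63, 7.47 and 7.60 against 7.65, 7.54 and 7.63, a change of 0.04 ± 0.08. In both the groups overlapped. The interval of 201819_at was -0.13 to 0.22.

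The 3 dimmer SCARB1 probe sets were less precise. Probe set 232421_at read 5.38, 5.03 and 5.13 in DMSO and 5.16, 4.73 and 4.64 in SRPIN803. SRPIN803 replicate 1 lay within the control range and the other two below it, for a change of -0.33 ± 0.15 with an interval of -0.68 to 0.01 (limma's adjusted p = 0.343). Probe sets 215834_x_at and 215835_at changed by 0.07 ± 0.12 and -0.03 ± 0.08.

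LIPG had 1 probe set, 219181_at, which read 8.38, 8.38 and 8.32 in DMSO and 7.32, 7.28 and 7.12 in SRPIN803. Every treated array lay below every control by at least 1.00, against SDs of 0.03 and 0.10. The change was -1.12 ± 0.08, from 8.36 ± 0.03 to 7.24 ± 0.10 (SD, n = 3), with an interval of -1.29 to -0.94 and limma's adjusted p = 0.00124. With 1 array left out it stayed between -1.15 and -1.06, and limma's adjusted p between 0.00537 and 0.0144. LIPG is named for endothelium. Of 8 endothelial marker genes, limma called 0 at an adjusted p under 0.05, against 2.92% of all genes. At an unadjusted p under 0.05 there were 0, against 17.1% of all genes. Above the median level lay 3 of the 8, ROBO4 (7.71), PECAM1 (6.36) and CLDN5 (5.65). The endothelial cadherin gene CDH5 was at a mean level of 2.65, below the median of all probe sets. The summed log2 level of the 8 markers was 40.4 to 40.6 in DMSO and 40.2 to 40.4 in SRPIN803, and the part of such cells in the LIPG change was not tested.

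LPL, lipoprotein lipase, belongs to the same lipase family and prefers triglyceride. Both of its probe sets lay below the median level. Probe set 203549_s_at read 4.33, 4.31 and 4.28 in DMSO and 4.65, 4.24 and 4.26 in SRPIN803, with replicate 1 the high array of the treated group. Probe set 203548_s_at read 2.94, 2.10 and 2.58 against 2.39, 2.83 and 2.69. The changes were 0.08 ± 0.12 and 0.10 ± 0.21, and the wider interval, -0.38 to 0.58, does not leave out a change of the size seen for ABCA1.

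**Figure D3:**
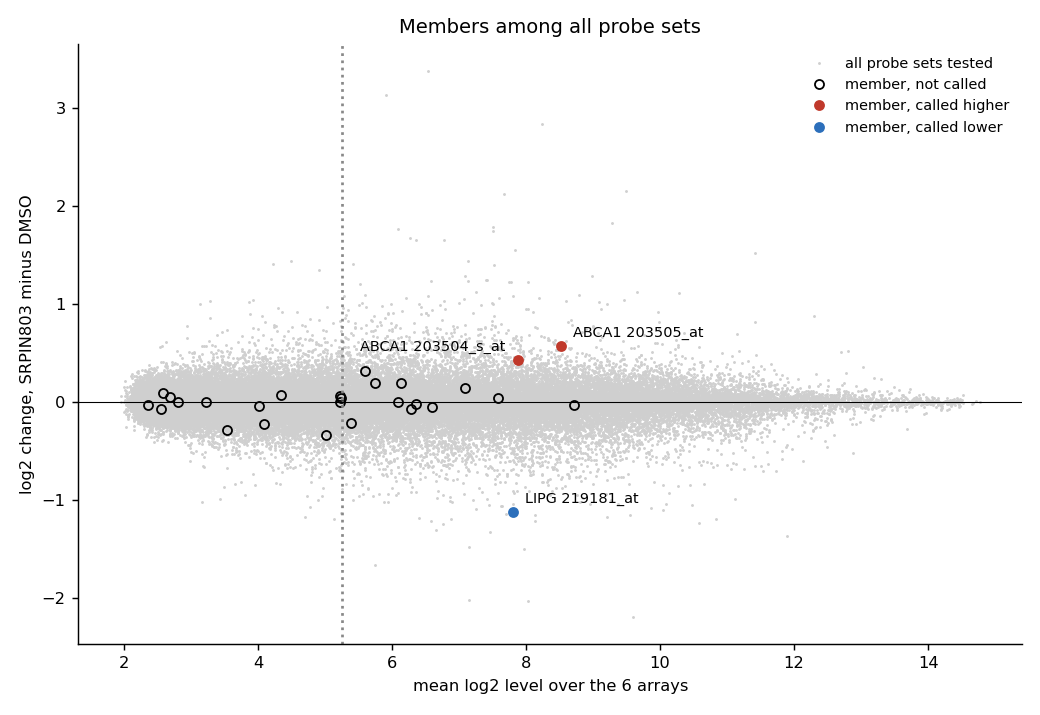
Change (log2, SRPIN803 minus DMSO, vertical axis) against mean level over the 6 arrays (log2, horizontal axis) for all 54613 probe sets (grey) and the 28 members (circles, filled where called). The dotted line is the median level, 5.26, and the 25 member probe sets not called lie between -0.33 and 0.32.

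Other genes of the pathway were counted in 7 groups, each gene by its brightest probe set. Of 82 genes measured, 3 rose and 1 fell (4.88%). Among all 19775 brightest probe sets 2.92% were called, 1.71% higher and 1.21% lower. The lists were chosen with the rise of ANGPTL4 known, so this comparison of shares is not a test either. The median change was -0.0026 over the 82 genes and 0.02 over all genes. An unadjusted p under 0.05 was reached by 17 of the 82, against 17.1% of all brightest probe sets, and groups did not overlap in 26 of the 82, against 25.6%. By group, an unadjusted p under 0.05 was reached by 3 of 9 partners and cofactors, 4 of 15 further LXR targets, 1 of 7 oxysterol enzymes and 5 of 15 genes of sterol transport and storage. It was reached by 1 of 8 lipoprotein receptors and regulators, 1 of 14 lipases and lipoprotein parts and 2 of 14 other ABC transporters.

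Among 9 measured LXR partners and cofactors 0 were called by limma, and 3 had an unadjusted p under 0.05 (17.1% over all genes). NCOA6, a coactivator that binds LXR, read 9.53, 9.5 and 9.59 in DMSO and 9.05, 9.24 and 9.25 in SRPIN803 (-0.37 ± 0.08, limma's adjusted p = 0.0635). TBL1XR1, a subunit of the corepressor complexes of nuclear receptors, read 11.31, 11.32 and 11.27 against 11.62, 11.55 and 11.70 (0.32 ± 0.07, limma's adjusted p = 0.0626). The second probe set of NCOA6, the dim 1568874_at, went the other way at 0.29 ± 0.14 and was not called. Groups were apart on the brighter NCOA6 probe set and for TBL1XR1, and both were called in the fit with 1 probe set per gene. Of 5 further probe sets of TBL1XR1, 221428_s_at was at 0.33 ± 0.07 and 222634_s_at at 0.20 ± 0.07, neither called, and 222633_at was at 0.01 ± 0.22, with SRPIN803 replicate 2 low at 10.07.

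Among 15 further LXR targets 1 rose, SMPDL3A, a secreted phosphodiesterase of the acid sphingomyelinase family that LXR induces in macrophages. It read 7.35, 7.44 and 7.22 in DMSO and 7.92, 7.85 and 7.95 in SRPIN803, with no overlap. The change was 0.57 ± 0.08 (1.49-fold, 1.31 to 1.69), limma's adjusted p = 0.0157. Its dim second probe set was at 0.29 ± 0.09 and not called. With 1 array left out SMPDL3A stayed between 0.51 and 0.62 and was no longer called without any 1 DMSO replicate, nor without SRPIN803 replicate 1 or 3, with limma's adjusted p as high as 0.0723. Groups did not overlap for 6 of the 15, against 25.6% of all genes, with SRPIN803 above in 4 and below in 2. Besides SMPDL3A, those above were ABCG8 (0.32 ± 0.11), MERTK (0.28 ± 0.10) and APOC2 (0.14 ± 0.09). Their mean levels, 4.60, 3.85 and 4.55, were under the median of all probe sets, and their groups were apart by only 0.013, 0.027 and 0.0002. SRPIN803 was below for FASN, fatty acid synthase (-0.22 ± 0.07, apart by 0.11). It was also below for SREBF1, the lipogenic regulator that LXR agonists raise (-0.13 ± 0.07, apart by 0.0056). None of these 5, named after their values were seen, was called. The group's median change was 0.05.

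Oxysterol enzymes, which make or remove the ligands of LXR, gave 0 calls by limma among 7 genes and 1 at an unadjusted p under 0.05, a share near the 17.1% of all genes. CYP7B1, the oxysterol 7-alpha-hydroxylase, read 5.20, 5.19 and 5.34 in DMSO and 5.55, 5.66 and 5.38 in SRPIN803 (0.29 ± 0.09, limma's adjusted p = 0.182). CH25H, cholesterol 25-hydroxylase, was dim and at 0.15 ± 0.09.

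Among 15 genes of sterol transport and storage 1 rose, GRAMD1C, which encodes an Aster protein that carries cholesterol from the plasma membrane to the endoplasmic reticulum. It read 3.91, 3.77 and 3.93 in DMSO and 4.60, 4.52 and 4.84 in SRPIN803. All treated arrays were higher, although every value lay below the median level. The change was 0.79 ± 0.10 (1.72-fold, 1.47 to 2.02), limma's adjusted p = 0.0115. It stayed between 0.69 and 0.85 with 1 array left out and lost the call without any 1 DMSO replicate (adjusted p up to 0.0626). The other 14, which include NPC1 and NPC2 of the lysosomal export route, were not called.

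Among 8 lipoprotein receptors and regulators 1 fell, LRP8, the apolipoprotein E receptor 2. It read 9.07, 9.12 and 8.94 in DMSO and 8.66, 8.38 and 8.34 in SRPIN803, with no overlap (-0.58 ± 0.10, limma's adjusted p = 0.0313). Its other probe sets changed by -0.52 ± 0.09 (called, 0.0284) and -0.35 ± 0.09 (not called, 0.0951). With 1 array left out the brightest was at -0.68 to -0.52, and it kept the call without SRPIN803 replicate 1 but lost it without each of the other arrays, with limma's adjusted p as high as 0.131.

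Among 14 lipases, lipoprotein parts and their regulators 1 rose, ANGPTL4, a secreted protein that inactivates lipoprotein lipase and can also inhibit the lipase encoded by LIPG. It read 7.01, 7.02 and 7.13 in DMSO and 8.56, 8.86 and 8.40 in SRPIN803. Its second probe set, 223333_s_at, read 5.97, 6.04 and 5.88 against 7.24, 7.5 and 6.89. On both, every treated array lay above every control. The changes were 1.55 ± 0.12 and 1.24 ± 0.14 (limma's adjusted p = 0.00195 and 0.00896), and the brighter stayed called with any 1 array left out. Among 14 other lipid transporters of the ABC family 0 were called by limma and 2 had an unadjusted p under 0.05, again near the 17.1% of all genes. ABCA12 (0.35 ± 0.08) and ABCA9 (0.30 ± 0.10) had the smallest p, both on dim probe sets. The other ABCA9 probe sets, 235335_at and 239185_at, were at -0.09 ± 0.10 and 0.13 ± 0.09, so the 3 did not share a sign.

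**Figure D4:**
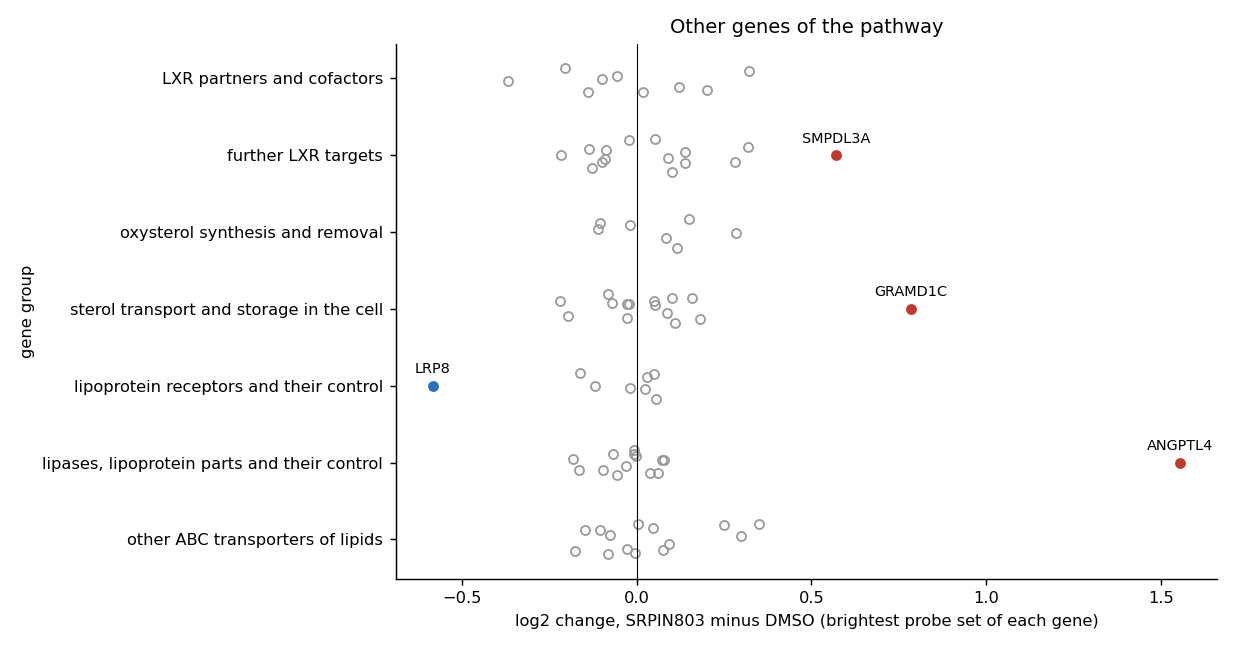
Change (log2, SRPIN803 minus DMSO, horizontal axis) of the brightest probe set of each of 82 pathway genes in 7 groups (vertical axis, points spread within a row for legibility). Filled points are the called genes, red for the 3 higher and blue for the 1 lower, and open points are not called.

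Array medians lay between 5.25 and 5.27, and correlations across probe sets were 0.9957 to 0.9977 within and 0.9940 to 0.9961 between groups. The actin control probe sets, 5' end minus 3' end, gave -1.99, -1.90 and -1.41 in DMSO and -2.16, -1.46 and -1.67 in SRPIN803. The groups overlapped there, and the part of this spread in differences between probe sets of 1 gene was not tested. Of 14 retinal pigment epithelium markers, 11 lay above the median level, among them KRT18, OTX2 and MITF. The visual cycle genes RPE65 and LRAT (2.33 and 2.83) and the pigment enzyme gene TYRP1 (3.21) lay below it. In the 5 marker lists, which also covered macrophage, hepatocyte and adipocyte, limma called 0 of 45 genes, and 3 had an unadjusted p under 0.05. Over all genes those shares were 2.92% and 17.1%. The 3 were MITF (0.35 ± 0.08, limma's adjusted p = 0.0675), OTX2 (0.17 ± 0.07, 0.295) and the hepatocyte gene ALB (0.34 ± 0.12, 0.234). For MITF and OTX2 every SRPIN803 array lay above every DMSO array, and for ALB the groups overlapped.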

How the data were processed

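Total RNA was labelled from the 3' end and hybridised to Affymetrix arrays, per the labels' protocols. The deposited values are log2 levels, 1 per probe set and array, made by the authors using RMA according to the submitters' processing notes. This method corrects background, normalizes between arrays and summarises probes. Which program ran it is not given in the sources used here. Of 54675 probe sets, 62 controls were left out. Between-array normalization hides any change in total RNA, and changes of dim probe sets are compressed. Arrays give no read depth, and 3 per group limit the precision.

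Gene names came from the platform annotation, where 41091 probe sets name 1 gene, 1801 several and 11721 are unnamed here. Listed genes without such a probe set were not analysed here. One limma model (version 3.58.1, R version 4.3.3) covered every probe set (eBayes after lmFit, on group alone, with 4 residual degrees of freedom), in two-sided tests. An exact permutation test of these arrays gives p = 0.1 at the least, and was not used. The limma test, but not the other steps, was tried on simulated data with independent noise and no effects shared by an array.

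The members and lists were chosen with earlier results of these data known, and that ABCA1 and ANGPTL4 rose and LIPG fell was known then. The rule for named genes took all member probe sets and, of each pathway group, up to 4 called genes with the largest change, or up to 2 of lowest p if no gene was called. Same-numbered replicates were not treated as pairs. Alternatives were a block for that number, arrays left out, a filter on dim probe sets, normalization, variance model, array weights, the probe sets tested and the threshold. Promoter sequences are RefSeq's, on GRCh38.p14, and plots used matplotlib 3.10.9 in Python 3.11.15.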

Additional observations from a re-analysis of the deposited data

How the results depend on the processing

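LIPG stayed lower and called under every alternative run, with limma's adjusted p of 1.08e-05 to 0.0211. Both bright ABCA1 probe sets stayed higher under every alternative fitted on them singly, and the mean of all 4 ABCA1 probe sets was not called. With the replicate block their changes were 0.58 and 0.44 (limma's adjusted p = 0.0634 and 0.0798), and at a threshold of 0.01 neither 0.58 nor 0.44 was called. With 1 array left out they ranged from 0.54 to 0.61 and from 0.39 to 0.47. Member probe sets called higher, 2 in the main setting, were 0 with the replicate block or at 0.01, 0 to 1 with 1 array left out, and 1 with 1 probe set per gene, where the second was not tested.

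Among all probe sets, 652 were called higher and 562 lower. The counts were 194 and 110 with the replicate block, 139 to 363 and 71 to 353 with 1 array left out, 132 and 74 at a threshold of 0.01, 1411 and 1256 among probe sets above the median level, and 1572 and 1425 with a variance trend and robust estimation. Whether same-numbered arrays belong together is not in the labels. Their deviations from the group means correlated at 0.14, -0.07 and 0.07, and those of differently numbered arrays at -0.17 to 0.12. With 3 arrays per group these values cannot decide it. The block has 2 fewer degrees of freedom, and the filter leaves 27306 tests.

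In the pathway groups, partners and cofactors had 1 higher and 1 lower, against 0 and 0, above the median level, with the variance trend and with 1 probe set per gene. Further LXR targets had 0 higher, against 1, with the replicate block and at 0.01, and 0 to 1 with 1 array left out, and lipoprotein receptors had the same values for lower genes. Sterol transport had 0 higher, against 1, above the median level (GRAMD1C was not tested there) and at 0.01, 0 to 1 with 1 array left out, and 2 higher and 1 lower with the variance trend. Other ABC transporters had 1 higher, against 0, with 1 probe set per gene.

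Signs turned only among probe sets that were not called. Centring on the array median gave -0.0057 for ABCG1 230913_at, -0.0093 for MYLIP 228097_at, -0.0041 for APOE 203382_s_at and -0.0029 for APOE 203381_s_at. A second quantile normalization gave -0.0066 for MYLIP 228097_at and -0.00089 for APOE 203381_s_at, and array weights gave -0.011 for APOE 203382_s_at. With 1 array left out, changes spanned 0 as follows. ABCG1 ran from -0.10 to 0.0091 (211113_s_at) and from -0.072 to 0.10 (230913_at). MYLIP ran from -0.051 to 0.16 (220319_s_at) and from -0.079 to 0.078 (228097_at), and LPCAT3 202793_at from -0.10 to 0.019. APOE ran from -0.053 to 0.021 (212884_x_at), from -0.12 to 0.14 (203382_s_at) and from -0.088 to 0.13 (203381_s_at). SCARB1 ran from -0.080 to 0.015 (1552256_a_at), from -0.0087 to 0.074 (201819_at) and from -0.074 to 0.029 (215835_at). LPL ran from -0.057 to 0.15 (203549_s_at) and from -0.12 to 0.30 (203548_s_at). Leaving out 1 array with 1 probe set per gene, an alternative chosen after seeing the data, gives the same changes, among them 0.0043 for ABCG1 211113_s_at and 0.0031 for SCARB1 1552256_a_at. Where no cause is given here, the cause was not tested.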
